A study of Mus musculus with 6 samples.

Results

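The 10 genes described here encode the liver route from tryptophan through kynurenine to nicotinamide adenine dinucleotide (NAD): Tdo2, Ido2, Afmid, Kmo, Kynu, Haao, Acmsd, Qprt, Aadat and Nadsyn1. They were taken by gene symbol from tables of 55487 genes, and all 10 were present and passed the filter on low counts. The set follows the textbook pathway but was selected on knowledge of this same comparison's fold changes, so the members' values below are a description and no test is drawn from them. The data are poly(A)-enriched RNA sequencing of livers from male C57/Bl6J mice fed HFD, a high-fat diet. The 3 control libraries have the genotype label Alb cre +/-, which is Cre recombinase driven by the hepatocyte-active promoter of albumin. The 3 mutant libraries carry the label RXRa f/f Alb cre+/-, so the Cre transgene is common to both groups, and the series describes the mutant as Rxra S65A. The f/f label and the S65A name describe the allele differently, and in the titles WT stands for the controls while Cre appears for the mutants alone. The animals' age, the time on diet and whether each library is 1 animal are not stated in the labels.

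Tryptophan is broken down mainly in hepatocytes. The dioxygenase TDO2 opens its indole ring, the formamidase AFMID releases kynurenine, and kynurenine then goes to 1 of several products: KMO and KYNU carry it towards 3-hydroxyanthranilic acid, while aminotransferases such as AADAT turn it into kynurenic acid. HAAO converts 3-hydroxyanthranilic acid to an unstable semialdehyde, which is either decarboxylated by ACMSD and burnt, or closes on its own to quinolinic acid, which QPRT and finally NADSYN1 carry to NAD. RXRα, the product of Rxra, is the dimer partner of many nuclear receptors that govern liver metabolism.

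Library totals lay between 35847386 and 43162557 estimated counts. Rxra itself was counted at 413 to 501 CPM in control livers and 522 to 700 CPM in mutant livers, a difference that was not called (log2 fold change 0.40 ± 0.13, edgeR adjusted p = 0.0724) and was -0.20 on log2(TPM + 1). Its summed counts were nearly equal, 62397 and 62496, and values summed over a gene do not tell which allele was transcribed. CPM here are counts scaled by library size with TMM factors, so that 1000000 counts make up a library of typical composition. This scaling sets the level of the typical gene equal in both groups. This choice matters for every gene below. Scaled to library totals alone, the median log2 fold change of all 14286 tested genes was -0.40, and on log2(TPM + 1), where TPM is the authors' length-scaled abundance, it was -0.48 over the 11567 genes with at least 1 TPM in 3 libraries. The major urinary protein genes, abundant secreted products of mouse liver, took 1.85% to 3.09% of the counts in the controls and 12.8% to 16.9% in the mutants. Hepatocyte transcripts were abundant. The 7 of 8 listed hepatocyte markers found by symbol together reached 78950 to 90750 CPM in control livers and 92400 to 97540 CPM in mutant livers.

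For 8 of the 10 members RefSeq gave a window of 250 bases before to 50 after the start of transcription (build GRCm38.p6, the assembly also called mm10). The 250 bases before the start of Nadsyn1, the last gene of the NAD arm, are shown because this gene was not called changed and its stretch is free of annotated exons and of every motif searched below. They lie on the minus strand at chr7:143822853-143823102 and are printed 5′ to 3′ on the gene's strand, with no capitals since there is no match to mark.
Nadsyn1: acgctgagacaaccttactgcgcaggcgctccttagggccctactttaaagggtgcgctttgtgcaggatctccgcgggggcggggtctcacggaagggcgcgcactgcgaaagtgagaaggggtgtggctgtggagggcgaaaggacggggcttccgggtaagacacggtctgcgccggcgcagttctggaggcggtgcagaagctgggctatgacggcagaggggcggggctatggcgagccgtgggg

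Searched on both strands, AGGTCA, the half-site bound by RXR and its partners, occurred in the 300-base windows of 3 of the 8 genes, against 16.3% of 32851 windows. A pair of AGGTCA half-sites in direct repeat spaced by 1 base (DR1, the spacing used by PPAR and RXR) or by 4 bases (DR4, used by LXR and RXR) occurred in none of the 8, and in 0.0396% and 0.0152% of all windows. The glucocorticoid receptor half-site AGAACA was found for 2 genes, against 19.0% of windows, and the AHR core GCGTG for 3, against 32.4%. TATAAA was found for Tdo2 alone of the 8, against 13.6% of windows. AGGTCA and GCGTG each matched in Acmsd, Haao and Tdo2, and AGAACA in Haao and Kmo. The windows of Afmid and Aadat, both called higher, and of Qprt, not called, also held no match to any of these motifs. Such matches describe letters in these windows and are not evidence of binding. The Nadsyn1 window had 65.7% G and C and 27 CpG, where the median window had 52.7% and 7.

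After TMM scaling most genes of the pathway stood higher in the mutant livers, with the highest log2 fold changes for Acmsd, Afmid and Aadat. Of the 10 genes 7 were called higher (Tdo2, Ido2, Afmid, Kmo, Haao, Acmsd and Aadat), 0 lower, and 3 were not called (Kynu, Qprt and Nadsyn1), where 6.64% of all tested genes were called higher, 6.82% lower and 13.5% in all. A gene was called at an adjusted p under 0.05 in edgeR's test. The median log2 fold change of the members was 0.45. In CPM, control and mutant libraries were fully separated for 9 of the 10, all except Qprt, as they were for 34.9% of the tested genes. The direction of 6 of the 10 depends on the scaling: in the limma fits on TPM the log2 fold change of Ido2, Kmo, Kynu, Haao, Nadsyn1 and Qprt was negative. At library totals 4 members were called higher (Tdo2, Afmid, Acmsd and Aadat) against 2.05% of all genes, and 1 lower (Qprt) against 31.5%. In bulk liver, fewer cells of a type and less RNA per cell cannot be told apart.

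**Figure D1:**
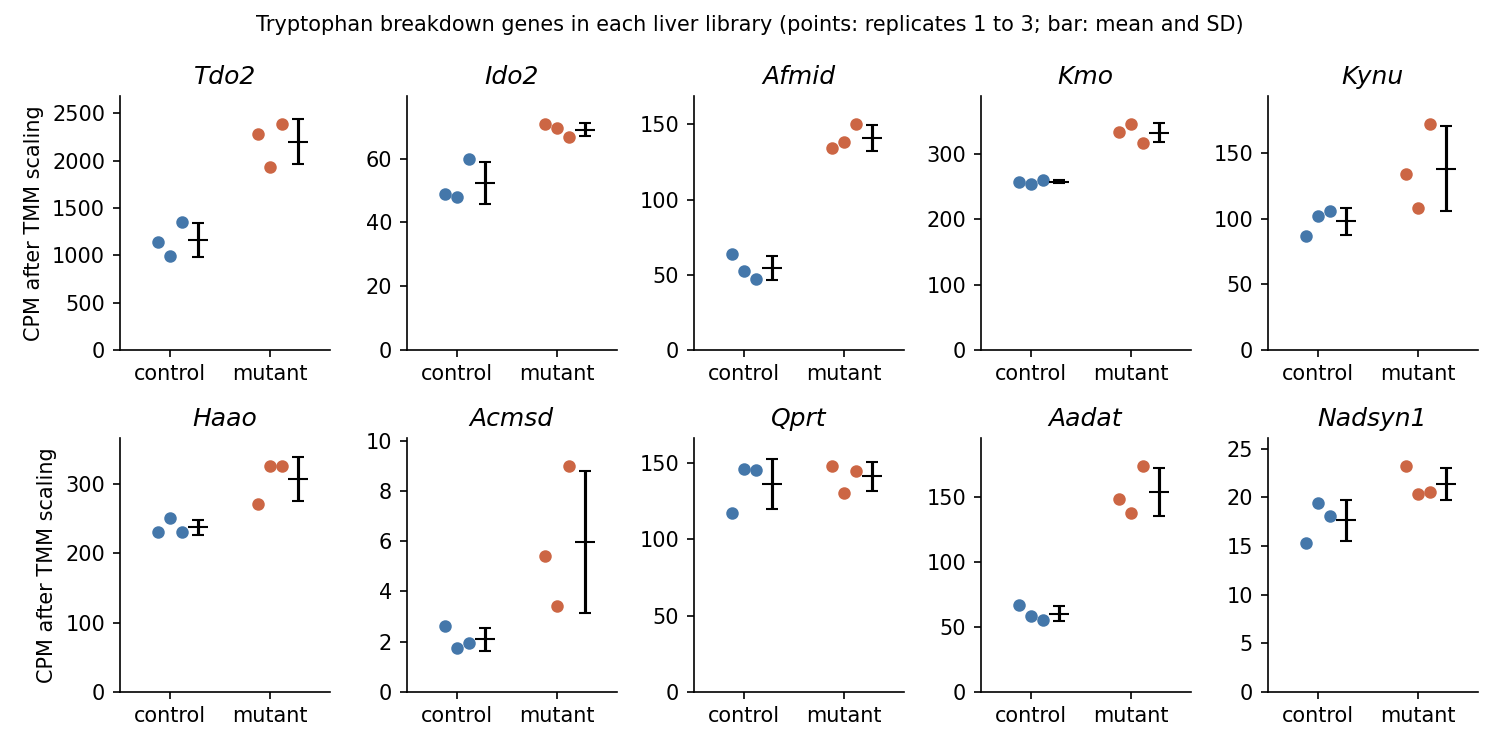
Level of each of the 10 genes in CPM after TMM scaling (vertical axis, linear from 0) in the 3 control and 3 mutant libraries, with points for replicates 1 to 3 from left to right and a bar for mean and SD. Afmid and Aadat show a wide gap between groups, Acmsd the widest spread among mutants, and only the Qprt points overlap.

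Tdo2 is the main gate of tryptophan breakdown in liver and was by far the most abundant of the set. It was counted at 1136, 996 and 1348 CPM in control replicates 1 to 3 and at 2281, 1934 and 2391 CPM in mutant replicates 1 to 3. All mutants lay above all controls, with a log2 fold change of 0.92 ± 0.14 (SE), or 1.90-fold. Per length it stood at 1037 ± 168 TPM among controls and 1304 ± 191 TPM among mutants (SD, n = 3 each), where mutant replicate 2, at 1085 TPM, lay below the highest control, at 1217 TPM. The log2 fold change was positive under all 17 alternatives, 0.53 at library totals and 0.33 and not called on log2(TPM + 1).

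Ido2, a relative of the indoleamine dioxygenase IDO1 with weak activity on tryptophan, was counted at 49.0, 48.0 and 59.9 CPM in control livers and 71.0, 69.5 and 66.8 CPM in mutant livers. The mutants lay close together and above the controls, with a log2 fold change of 0.40 ± 0.11 that was 0.01 at library totals and -0.18 on log2(TPM + 1). The total count was nearly equal, 7057 in the 3 controls together and 7032 in the 3 mutants. IDO1, the dioxygenase of immune cells, was almost absent: Ido1 had 1 count in the control libraries combined and 0 in the mutant ones, and no fold is given. Within a library, where scaling between libraries cancels, Tdo2 stood at 35.3, 31.6 and 34.3 times the TPM of Ido2 in the controls and at 48.9, 42.4 and 54.5 times in the mutants. The ratio was thus 1.44 times as high in the mutants, with no overlap. This pair was chosen after the values were seen. The share of all gene pairs whose ratios do not overlap was not computed.

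Afmid encodes the arylformamidase that turns N-formylkynurenine into kynurenine. It was counted at 63.6, 52.5 and 47.5 CPM in control livers and 134, 138 and 151 CPM in mutant livers. Its log2 fold change of 1.37 ± 0.13, or 2.59-fold, lay at percentile 98.1 of all tested genes, and it was called higher under all 17 alternatives with values from 0.77 to 1.50. Its first 169 bases overlap Tk1, which encodes a thymidine kinase and is read from the other strand, and the strandedness of the counting is not given. Tk1 also rose, from 4.85 ± 1.05 to 18.3 ± 1.51 CPM (log2 fold change 1.91 ± 0.19, edgeR adjusted p = 7.98e-04). On the same strand, the protein-coding gene Gm20708 shares 13981 of the 13985 annotated bases of Afmid. Gm20708 was counted at 0.135 ± 0.187 CPM in controls and 0.0872 ± 0.151 CPM in mutants. The part of reads shared with either gene in the Afmid value was not tested.

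Kmo and Kynu lead kynurenine towards NAD. Kmo, the flavin-dependent hydroxylase of the outer mitochondrial membrane, was counted at 258, 255 and 260 CPM in control livers and 333, 347 and 318 CPM in mutant livers. The controls differed among themselves by a coefficient of variation of 0.934%, the smallest of the set. The log2 fold change was 0.37 ± 0.08 after TMM scaling, -0.03 at library totals, and -0.23 and called lower on log2(TPM + 1). Kmo shares 5255 annotated bases with Fh1, the fumarate hydratase gene on the opposite strand, which rose from 133 ± 14.1 to 242 ± 44.4 CPM (edgeR adjusted p = 0.0093), and the part of shared reads in the Kmo value was not tested.

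Kynu, the kynureninase that needs vitamin B6, was counted at 86.7, 102 and 106 CPM in control livers and 134, 108 and 173 CPM in mutant livers. Mutant replicate 2 lay just above the highest control, and the log2 fold change of 0.50 ± 0.17 was not called. Leaving out mutant replicate 2 it was 0.64 and called. Haao, the dioxygenase that opens the ring of 3-hydroxyanthranilic acid, was counted at 231, 251 and 231 CPM in control livers and 272, 327 and 326 CPM in mutant livers. Mutant replicate 1 lay nearest to the controls, the log2 fold change was 0.37 ± 0.10, and on log2(TPM + 1) it was -0.23 and called lower.

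Aadat, a mitochondrial aminotransferase that makes kynurenic acid and also acts on aminoadipate of lysine breakdown, was counted at 67.0, 58.5 and 55.4 CPM in control livers and 149, 138 and 174 CPM in mutant livers. The log2 fold change was 1.35 ± 0.12, or 2.55-fold, and Aadat was called higher under all 17 alternatives (0.74 to 1.43). Afmid and Aadat kept nearly the same proportion to each other, since the ratio of Aadat to Afmid in TPM was 1.80, 1.90 and 1.99 in the controls and 1.89, 1.71 and 1.98 in the mutants. Against Kmo, which competes with AADAT for kynurenine, Aadat stood at 0.522, 0.462 and 0.429 times its TPM in the controls and at 0.898, 0.800 and 1.10 times in the mutants. This ratio did not overlap between the groups and was 1.98 times as high in the mutants. The ratio of Afmid to Kmo was 2.01 times as high, without overlap, and that of Kynu to Kmo overlapped, at 0.437 ± 0.0451 among controls and 0.481 ± 0.134 among mutants (SD, n = 3 each). These ratios were chosen after the values were seen and carry no test, and no share over other gene pairs was computed.

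**Figure D2:**
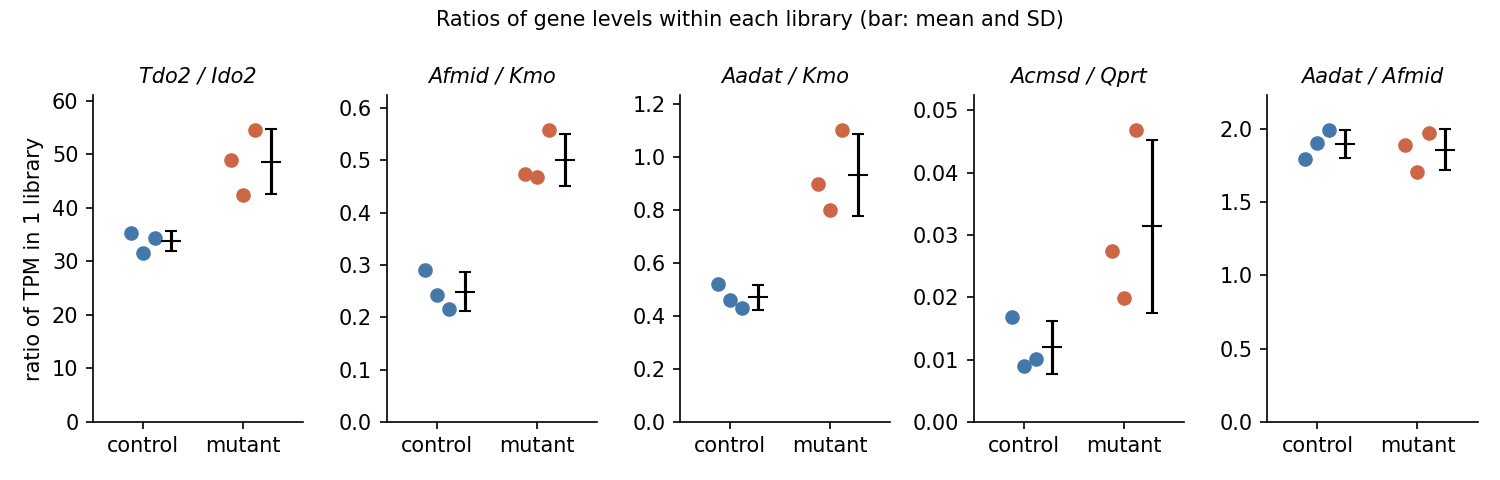
Ratio of the TPM of 1 gene to that of another within the same library (vertical axis, linear from 0) for 5 gene pairs, with points for replicates 1 to 3 and a bar for mean and SD. The groups separate for Tdo2 to Ido2, Afmid to Kmo, Aadat to Kmo and Acmsd to Qprt, and overlap for Aadat to Afmid. The pairs were chosen after the values were seen.

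At the last branch the genes differed. Acmsd, whose product draws the semialdehyde away from NAD synthesis, was the scarcest member. It was counted at 2.61, 1.74 and 1.95 CPM in control livers and 5.41, 3.44 and 9.003 CPM in mutant livers, from 285 estimated counts summed over control livers and 597 over mutant livers. The mutants spread widely, with mutant replicate 2 low and replicate 3 high, and the log2 fold change was 1.50 ± 0.37 (1.07 and not called without mutant replicate 3). Qprt, which makes nicotinic acid mononucleotide from quinolinic acid, was counted at 118, 146 and 146 CPM in control livers and 148, 131 and 145 CPM in mutant livers. The groups overlapped and the log2 fold change was 0.05 ± 0.11, the lowest of the set, at percentile 55.0 of all tested genes. At library totals it was -0.35 and called lower right at the threshold (edgeR adjusted p rounded to 0.05). Without the major urinary protein genes in the totals it was -0.16 and not called. On log2(TPM + 1) it was -0.54 and called lower (limma adjusted p = 0.0082). The ratio of Acmsd to Qprt in TPM was 0.0168, 0.00898 and 0.0101 in the controls and 0.0275, 0.0199 and 0.0469 in the mutants. This ratio was thus higher in every mutant than in every control, 2.63 times on average. The TPM of Acmsd alone overlapped between the groups, and this pair too was chosen after the values were seen. The ratio of Qprt to Haao overlapped, at 0.350 ± 0.0371 and 0.283 ± 0.0459.

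Nadsyn1, the glutamine-dependent NAD synthetase that completes the route, was counted at 15.3, 19.4 and 18.1 CPM in control livers and 23.3, 20.3 and 20.6 CPM in mutant livers. The mutants lay above the controls by a narrow margin, and the log2 fold change of 0.28 ± 0.13 was not called in any of the 17 alternatives.

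The choice of scaling shifted the 10 genes and kept most of their order. After TMM scaling the order from highest to lowest log2 fold change was Acmsd, Afmid, Aadat, Tdo2, Kynu, Ido2, Haao, Kmo, Nadsyn1 and Qprt. Library totals lowered each of them by about the shift of the median gene, while on log2(TPM + 1) Acmsd, whose level is near the pseudocount of 1, dropped to 0.54 and below Afmid (0.77) and Aadat (0.74). After TMM scaling the upper 4 lay between 0.92 and 1.50 and the other 6 between 0.05 and 0.50. Every one of the 10 lay above the median of all genes after TMM scaling and at library totals, where Qprt at -0.35 is set against -0.40, but Qprt at -0.54 lay below the median of -0.48 on log2(TPM + 1).

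**Figure D3:**
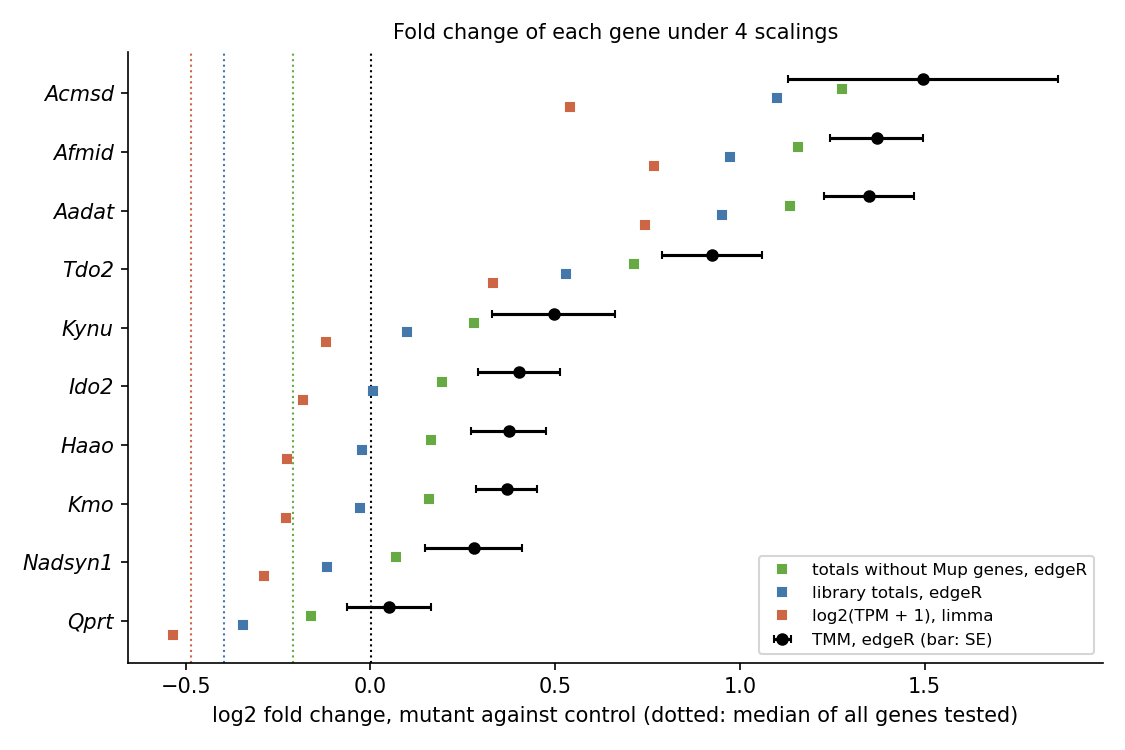
Log2 fold change of mutant against control (horizontal axis) for each of the 10 genes under 4 scalings, with the SE for TMM and dotted lines at the median of all genes tested under each. Acmsd, Afmid, Aadat and Tdo2 stay above 0 in all 4, and Qprt runs from 0.05 to -0.54.

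Fewer members were called when any 1 library was left out. Afmid, Aadat and Tdo2 were called in each of the 6 fits that left out 1 library. Ido2 was called in 1 of the 6, without control replicate 3 (0.51), and ranged from 0.35 to 0.51. Kmo was called in 1, without mutant replicate 3 (0.40), and ranged from 0.33 to 0.40. Haao was called in 1, without mutant replicate 1 (0.46), and ranged from 0.32 to 0.46. Acmsd was called in 1, without mutant replicate 2 (1.76), and ranged from 1.07 to 1.76. Among the mutants, replicate 2 had the lowest CPM for 6 of the 10 genes and replicate 3 the highest for 5, and mutant replicate 2 had the largest share of major urinary protein counts (16.9%).

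Per length, the order of levels in the controls was Tdo2 (1037 TPM), Haao (328), Kmo (162), Qprt (115), Aadat (76.0), Kynu (70.6), Afmid (40.3), Ido2 (30.7), Nadsyn1 (12.0) and Acmsd (1.33 TPM). Aadat and Kynu overlapped in the controls, as did Afmid and Ido2. In the mutants Aadat (129 TPM) stood next to Kmo (138 TPM), with overlapping libraries, and Qprt (78.9 TPM), Afmid (68.9 TPM) and Kynu (66.1 TPM) overlapped as well. In TPM the groups did not overlap for 5 members, Afmid and Aadat being higher in the mutants and Kmo, Haao and Qprt lower, where this holds for 71.8% of 11567 genes with a TPM of at least 1 in 3 libraries. Tdo2 made up 50.9% to 59.0% of the summed TPM of the 10 genes in the controls and 59.2% to 63.9% in the mutants.

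In mm10 coordinates (GENCODE M21) all 10 are protein-coding genes on separate stretches. Tdo2 spans bases 81957090 to 81976202 of chromosome 3, Afmid 117825924 to 117839908 of chromosome 11 and Haao 83831156 to 83847963 of chromosome 17. Kmo spans 175620381 to 175662116 and Acmsd 127729413 to 127767978 of chromosome 1. Kynu spans 43555329 to 43682715 of chromosome 2. Qprt spans 127107114 to 127122226 and Nadsyn1 143795584 to 143822849 of chromosome 7. Ido2 spans 24531892 to 24576333 and Aadat 60505932 to 60545677 of chromosome 8. Acmsd also overlaps the antisense gene 2900009J06Rik, which was counted at 0.0235 and 0.0801 CPM in controls and mutants.

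Other enzymes that act on kynurenine were examined as a list of 6. Of the 5 tested 2 rose, 0 fell and 3 did not pass, with a median log2 fold change of 0.32 (-0.08 at library totals) against 0.00 over all tested genes. Kyat1, a cytosolic aminotransferase that also makes kynurenic acid, was counted at 35.7, 37.2 and 45.7 CPM in control livers and 105, 83.4 and 84.9 CPM in mutant livers. It rose by a log2 fold change of 1.20 ± 0.14 (edgeR adjusted p = 0.00164) and passed in all 17 alternatives. Its relative Kyat3 overlapped between groups, with 91.3 ± 19.8 and 105 ± 13.0 CPM (SD, n = 3 each) and a log2 fold change of 0.20 ± 0.16. Got2, the mitochondrial aspartate aminotransferase, rose by 0.37 ± 0.09 (edgeR adjusted p = 0.0316), a call that held in 1 of the 6 fits leaving out a library, without mutant replicate 2 (0.40, adjusted p = 0.0358). Got2 turned to -0.03 at library totals and -0.23 on log2(TPM + 1).

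Another list held genes that burn the carbon beyond ACMSD to acetyl-CoA. Of 7 tested 1 rose, 0 fell and 6 did not pass, with a median of 0.31 (-0.09 at library totals). Aldh8a1, the dehydrogenase next after ACMSD, differed by 0.32 ± 0.10 on the log2 scale, which missed the threshold (edgeR adjusted p = 0.0623). Dlst, a subunit shared by 2-oxoacid dehydrogenases, rose by 0.35 ± 0.08 (edgeR adjusted p = 0.027) and was negative at library totals (-0.04). Leaving out a library, Dlst passed without mutant replicate 2 alone (0.38, adjusted p = 0.0355).

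NAD can also be made from nicotinic acid, nicotinamide or nicotinamide riboside. Of 9 tested genes of these routes and of NAD handling 2 rose, 0 fell and 7 did not pass, with a median of 0.22 (-0.16 at library totals). Naprt, which starts the route from nicotinic acid, was counted at 82.8, 92.6 and 73.2 CPM in control livers and 128, 124 and 112 CPM in mutant livers. It rose by 0.55 ± 0.11 (edgeR adjusted p = 0.017), was not called at library totals (0.16) and was -0.04 on log2(TPM + 1). Naprt did not pass without control replicate 1, control replicate 3 or mutant replicate 1, with values from 0.47 to 0.64 over the 6 fits. Nampt, the rate-limiting enzyme of salvage from nicotinamide, was counted at 73.9 ± 9.82 CPM in control livers and 64.4 ± 16.8 CPM in mutant livers and overlapped (log2 fold change -0.20 ± 0.19, edgeR adjusted p = 0.538). Nampt was -0.60 at library totals, where 31.5% of all genes were called lower, and -0.79 on log2(TPM + 1), called lower in both. Slc25a51, the mitochondrial NAD carrier, rose from 35.3 ± 3.37 to 59.4 ± 14.5 CPM (edgeR adjusted p = 0.0283). It passed without mutant replicate 2 (0.90, adjusted p = 0.0121) and in no other fit leaving out a library.

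Among 19 genes that consume NAD or clear nicotinamide, 2 rose, 0 fell and 17 did not pass, with a median of 0.04 (-0.36 at library totals). The highest log2 fold change of the list was that of Nnmt, which methylates nicotinamide. Nnmt was counted at 18.4, 27.4 and 17.3 CPM in control livers and 180, 77.0 and 154 CPM in mutant livers, with mutant replicate 2 the lowest of the mutants and still above all controls. The log2 fold change was 2.70 ± 0.32 (edgeR adjusted p = 0.00176), and it passed in all 17 alternatives with values from 2.02 to 2.98. Sirt7, a nuclear sirtuin, rose by 0.46 ± 0.11 (edgeR adjusted p = 0.0346), was -0.14 on log2(TPM + 1), and passed without mutant replicate 3 alone (0.53, adjusted p = 0.0301). The sirtuins Sirt1 to Sirt6 and all 6 PARP genes of the list did not pass after TMM scaling. At library totals, where 31.5% of all genes were called lower, Sirt2, Sirt4, Sirt5, Sirt6 and most of these PARP genes were called lower.

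Transport genes were mixed, and no gene of the serotonin branch was called after TMM scaling. Of 6 tested carriers of tryptophan or aromatic and branched amino acids 2 rose, 1 fell and 3 did not pass, with a median of -0.21 (-0.60 at library totals). Slc16a10, an aromatic amino acid transporter, was counted at 64.7, 59.3 and 56.5 CPM in control livers and 130, 120 and 113 CPM in mutant livers. It rose by a log2 fold change of 1.01 ± 0.10 (edgeR adjusted p = 8.95e-04) and passed in all 17 alternatives, as did Slc43a1, a carrier of large neutral amino acids (1.62 ± 0.656 to 10.7 ± 4.96 CPM, edgeR adjusted p = 0.00646). Slc36a4 fell by 0.75 on the log2 scale (edgeR adjusted p = 0.0456) and passed in none of the 6 fits leaving out a library (-0.87 to -0.54). Of the serotonin branch, the hydroxylase Tph1 had 0 counts in all libraries. Of 3 tested genes (Ddc, Maoa and Maob) none rose or fell after TMM scaling, with a median of -0.43 (-0.82 at library totals). Ddc (-0.82) and Maoa (-0.97) were called lower at library totals, and all 3 on log2(TPM + 1).

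Kynurenine and kynurenic acid are known ligands of the aryl hydrocarbon receptor AHR. Of 8 tested genes of that receptor's pathway 1 rose, 1 fell and 6 did not pass, with a median of 0.01 (-0.39 at library totals). Cyp1a2 rose from 132 ± 23.4 to 296 ± 62.9 CPM (log2 fold change 1.17 ± 0.18, edgeR adjusted p = 0.00574). Nqo1 fell from 9.83 ± 0.901 to 4.93 ± 1.22 CPM (edgeR adjusted p = 0.0193), a call not kept without control replicate 2, control replicate 3 or mutant replicate 1 (-1.21 to -0.87 over the 6 fits). Ahr itself was counted at 47.4 and 48.3 CPM on average (log2 fold change 0.03 ± 0.31).

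Of 9 transcription regulators listed for their known or possible part in these genes' expression, 1 rose, 0 fell and 8 did not pass, with a median of 0.40 (0.01 at library totals). Hnf4a, a hepatocyte nuclear receptor, rose from 481 ± 32.0 to 766 ± 73.8 CPM (log2 fold change 0.67 ± 0.10, edgeR adjusted p = 0.00597). It was 0.27 and not called at library totals. The glucocorticoid receptor gene Nr3c1, whose hormone induces Tdo2, was counted at 75.3 and 74.1 CPM on average (log2 fold change -0.02 ± 0.11).

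Breakdown genes of other amino acids were mostly higher after TMM scaling as well. Of 8 phenylalanine and tyrosine genes 6 rose and 0 fell (median 0.75, and 0.35 at library totals). Hpd, the tyrosine pathway dioxygenase, was among them (941 ± 88.8 to 2266 ± 182 CPM, edgeR adjusted p = 5.31e-04). Of 4 histidine genes 3 rose and 0 fell (median 0.58, and 0.18 at library totals), led by the histidine ammonia-lyase Hal (155 ± 30.7 to 457 ± 117 CPM, edgeR adjusted p = 0.00332). The members' median was 0.45 after TMM scaling and 0.05 at library totals. Differences between these lists were not tested.

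**Figure D4:**
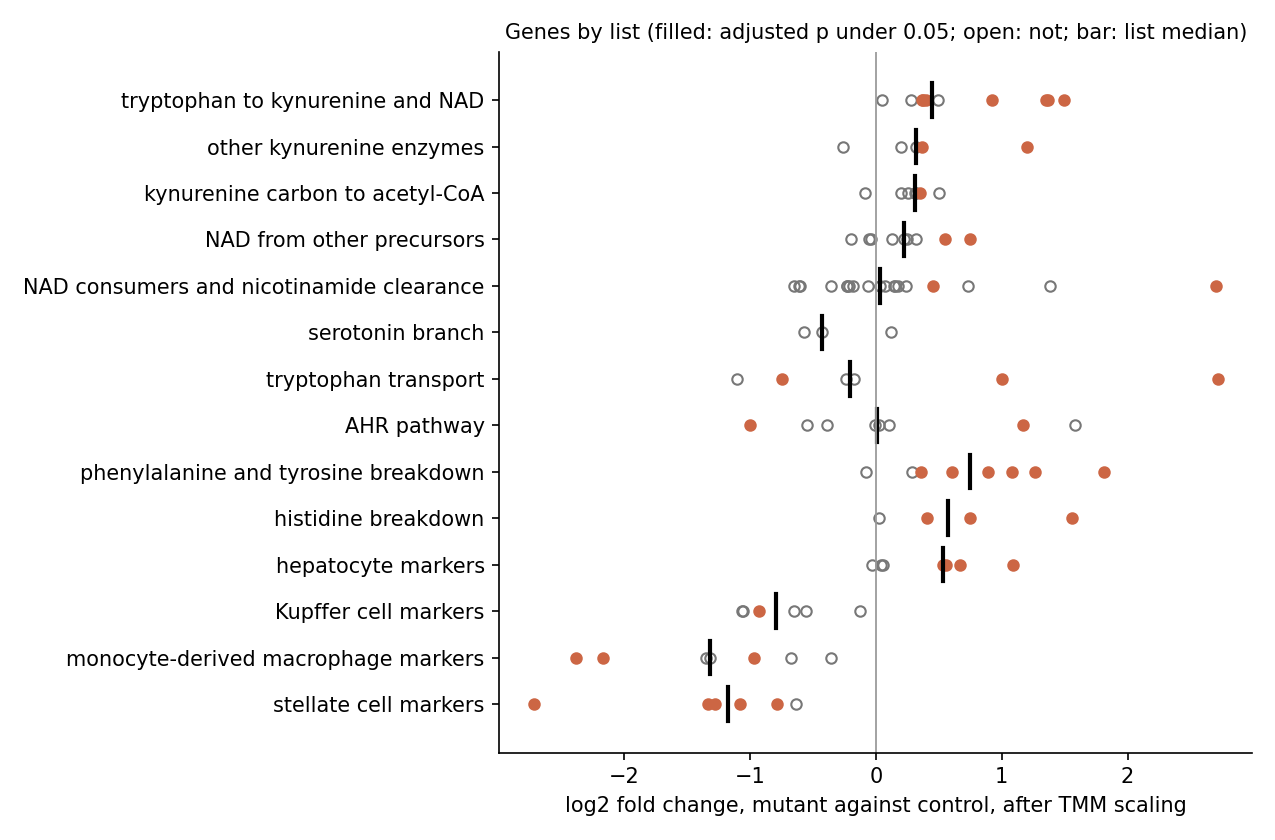
Log2 fold change of mutant against control after TMM scaling (horizontal axis) for every tested gene of 14 lists, filled where the adjusted p was under 0.05, with a bar at each list's median. The 10 tryptophan genes all lie above 0, between 0.05 and 1.50, while the Kupffer cell, monocyte-derived macrophage and stellate cell markers all lie below 0.

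Stellate cell, Kupffer cell and monocyte-derived macrophage markers all had negative log2 fold changes after TMM scaling. So did all tested markers of endothelial cells, neutrophils and adipocytes. Markers of lymphocytes and cholangiocytes went both ways. Of 7 tested hepatocyte markers 4 rose and 0 fell (median 0.53, and 0.14 at library totals), while Alb, Ttr and Apob differed by 0.06, -0.03 and 0.04 and did not pass. Of 6 stellate cell markers 0 rose and 5 fell, their summed level being 249 to 262 CPM in control livers and 110 to 136 CPM in mutant livers. Of 7 markers of monocyte-derived macrophages 0 rose and 3 fell (75.7 to 96.7 CPM and 33.2 to 55.0 CPM). Of 6 Kupffer cell markers 0 rose and 1 fell (180 to 250 CPM and 79.1 to 162 CPM), and none of these markers was at 0 in a group. Of 5 tested dendritic cell markers 0 rose and 1 fell, with a summed level of 6.20 to 10.95 CPM and 2.98 to 5.05 CPM. Itgax was the 1 that fell (4.03 ± 0.462 to 0.886 ± 0.364 CPM). Clec9a (-0.94), Siglech (-0.35), Flt3 (0.10) and Xcr1 (0.53) did not pass. Clec9a stood at 5.08 CPM in control replicate 2, against 1.47 and 0.834 CPM in control replicates 1 and 3. The part of all these cell markers in the members' values was not tested.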

How the data were processed

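Liver RNA libraries, 3 control and 3 mutant, were grouped by titles and genotype labels. The mm10 build and the tools STAR and cutadapt are named per the submitters' processing notes. Not given in the sources used here were the quantifier, the annotation release and the strandedness. Deposited by the authors were estimated counts, none whole within 1e-06, and TPM, which sum to 1000000 per library. Each column's name matched 1 sample title, and 0 columns were left over.

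Estimated counts were rounded and fitted across all genes with edgeR 4.0.16 (R 4.3.3): filterByExpr, TMM, quasi-likelihood F-test on group, Benjamini-Hochberg over 14286 genes, called at an adjusted p under 0.05. Errors of log2 fold changes are SE from the F statistic, and others are SD. CPM use unrounded counts. P-values measure the spread between libraries, which may be technical. Alternatives were RLE, library totals with and without major urinary protein genes, other filters, DESeq2 1.42.0, robust fitting, the replicate number as a block, leaving out each library, and limma 3.58.1 on log2(TPM + 1) or log2(TPM + 0.1) for genes of at least 1 TPM in 3 libraries, or for all genes above 0. The edgeR fit was tested on simulated data with changes in both directions and otherwise the same composition in both groups. That simulation therefore could not check the choice of scaling.

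The members and the 11 other pathway lists (83 further genes tested), written from textbook biochemistry, and the 12 marker lists were chosen with earlier results of these data known. Named genes were the members, Rxra, Ido1, Kyat1, Kyat3, Nampt, Naprt and Nnmt, and up to 4 genes per pathway list with the smallest p among those at or under 0.05, 46 in all, of which a part is described. Genes named outside the rule (Fh1, Tk1, Gm20708, Ahr, Nr3c1, Tph1, Ddc, Maoa, Maob, Sirt1 to Sirt6, 2900009J06Rik, Alb, Ttr and Apob) are overlapping genes, central genes of a list or members that did not pass. The tested dendritic cell markers were also named outside the rule. The other marker lists had, as higher and lower of those tested, lymphocyte 1 and 0 of 8, neutrophil 0 and 2 of 3, endothelial cell 0 and 2 of 6, cholangiocyte 1 and 1 of 5, adipocyte 0 and 2 of 2, kidney tubule 0 and 0 of 1, and exocrine pancreas 0 and 0 of 1. GENCODE M21 gave coordinates. 1 of the pathway lists and 1 upstream sequence are not reported here.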

Additional observations from a re-analysis of the deposited data

How the results depend on the processing

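With 3 libraries a group, calls rest on few samples, and the scaling sets the direction of most members. After TMM scaling 1923 genes were called (949 higher, 974 lower), 7 members (7 higher, 0 lower) and 23 genes of the other pathway lists (21 higher, 2 lower). At library totals 4794 genes were called (293 higher, 4501 lower, so 6.11% higher), 5 members (4 higher, 1 lower) and 33 list genes (10 higher, 23 lower). Without the major urinary protein genes in those totals 405 genes were higher and 1968 lower (17.1% higher), 4 members were called, 4 higher and 0 lower, and of the list genes 13 were higher and 7 lower. Limma on log2(TPM + 1) called 7579 genes (217 higher, 7362 lower), 2 members higher and 3 lower, and 54 list genes (10 higher, 44 lower). On log2(TPM + 0.1) it called 7526 (211 higher, 7315 lower), 2 members higher and 3 lower, and 54 list genes (10 higher, 44 lower). Without a filter on TPM it called 6581 (190 higher, 6391 lower), 4 members (2 higher, 2 lower) and 44 list genes (7 higher, 37 lower). DESeq2 called 2607 genes in all, 8 members and 31 list genes (5 lower), and edgeR without a filter 2322, 8 and 30 (5 lower). Leaving out 1 library, 882 to 1514 genes were called (426 to 758 higher, 431 to 756 lower), 3 to 5 members, 3 to 5 of them higher, and 14 to 20 list genes (13 to 19 higher, 0 to 2 lower). The lowest count was without mutant replicate 1. The cause of these differences was not tested.

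The replicate number served as a replicate block in 1 fit, which called 1558 genes (775 higher, 783 lower), 5 members, not Ido2 (0.41) and Haao (0.37), and 17 list genes (16 higher, 1 lower). Same-numbered libraries deviated together with correlations of 0.0167, -0.00322 and 0.0634, so the numbers were not taken as pairs, and not every library correlated best with its own number.

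The sign of the log2 fold change turned in the 3 limma fits for 17 named genes, with the values Ido2 (-0.19 and -0.18), Kmo (-0.23), Kynu (-0.12), Haao (-0.23), Qprt (-0.54), Nadsyn1 (-0.31 and -0.29), Rxra (-0.20), Kyat3 (-0.38), Naprt (-0.039 and -0.040), Got2 (-0.23), Aldh8a1 (-0.28), Dlst (-0.24), Gcdh (-0.29), Echs1 (-0.34), Nadk2 (-0.35), Sirt7 (-0.14) and Ftcd (-0.20 and -0.19). At library totals it turned for Kmo (-0.028), Haao (-0.024), Qprt (-0.35), Nadsyn1 (-0.12), Kyat3 (-0.20), Got2 (-0.030), Aldh8a1 (-0.078), Dlst (-0.044), Gcdh (-0.090), Echs1 (-0.14) and Nadk2 (-0.15). Without the major urinary protein genes in the totals it turned for Qprt (-0.16) and Kyat3 (-0.010). Without control replicate 1 it turned for Qprt, whose values leaving out 1 library ran from -0.043 to 0.10. The cause of each turn was not tested. No sign turned with RLE factors, the other filters on counts, DESeq2, robust fitting or the block.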
